A study of Mus musculus with 3 samples.

Results

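The BMP receptor and Smad genes examined here were Bmpr1a, Bmpr1b, Acvr1, Bmpr2, Smad1, Smad5, Smad9, Smad4, Smad6 and Smad7. They were taken as a named list of 10 genes, of 21938 protein-coding genes on the chromosomes in GENCODE M21, and each was read against the positions of Setd1a binding in quiescent adult neural stem cells (NSCs). Setd1a is a methyltransferase that modifies lysine 4 of histone H3, a mark of active promoters. Its binding was mapped by CUT & RUN, in which an antibody tethers a nuclease to chromatin so that DNA around the bound protein is released and sequenced. There were 2 Setd1a libraries from independent cultures and 1 IgG library. All 3 came from cells labelled WT, grown from the dentate gyrus of mice 7 to 8 weeks old that carried Hopx-CreERT2, floxed Setd1a and H2B-GFP alleles, with Cre under Hopx, a gene of quiescent radial glia-like cells. The cells were held without EGF in BMP4 and FGF2, each at 20 ng/ml, and collected at day 5. The binding data were 1 deposited list of 6969 intervals (peaks), 6950 of them on chromosomes, kept where the peak was found in both replicates. It has no height or p-value per peak, so sites could be placed and sized but not ranked by occupancy, and no spread between replicates could be given. The depth of the libraries is unknown, so a gene without a peak is one for which this list holds none. No untreated or proliferating culture was part of the comparison, and the labels give no group without BMP4. Promoter peaks were present at the neural stem cell markers Sox2, Nes, Gfap, Pax6 and Vim. They were present at 0 of 6 neuron, 0 of 6 microglia and 0 of 6 endothelial markers. Among 6 oligodendrocyte lineage markers, Olig2 and Pdgfra had one. Of all protein-coding genes 23.0% had a promoter peak, and lists of 6 are too short to be set apart from that share. A CpG-rich main start site, as defined below, was present at 3 neuron, 0 microglia, 2 endothelial and 1 oligodendrocyte lineage markers. The counts are therefore no measure of cell type. Other neural stem cell markers had none, with the nearest peak 7.74 kb from Slc1a3, 29.0 kb from Sox9, 252 kb from Fabp7 and 7.52 kb from Hopx, whose promoter drives the Cre.

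Bone morphogenetic proteins (BMPs) are secreted ligands that bring together type I receptors (Bmpr1a, Bmpr1b and Acvr1) and a type II receptor such as Bmpr2. The type II receptor phosphorylates the type I receptor, which phosphorylates Smad1, Smad5 and Smad9. These join Smad4 and enter the nucleus to regulate target genes such as the Id genes, while Smad6 and Smad7 restrain the signal and are themselves induced by it. In the adult dentate gyrus, BMP signalling is known for holding NSCs in quiescence, and BMP4 was part of the quiescence medium of these cultures.

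Setd1a peaks were found at the promoters of 7 of the 10 genes, counting any peak no more than 3000 bp, edge to site, from a transcription start site (TSS) in the annotation. The 7 were the type I receptors Bmpr1a, Bmpr1b and Acvr1, the receptor-activated Smad1, the common Smad4, and the inhibitory Smad6 and Smad7. Bmpr2, Smad5 and Smad9 had none. Of all 21938 protein-coding genes, 5036 had such a peak, which is 23.0% (95% Wilson interval 22.4% to 23.5%, counting error over genes only). A peak over a TSS itself was present at Smad1 and Smad7, 2 of the 10 genes, and at 3590 protein-coding genes, or 16.4% (15.9% to 16.9%). Among protein-coding genes with a promoter peak 71.3% had one over a TSS, compared with 2 of these 7. The genes were chosen by name with earlier results of these data known, so the counts are given side by side and were not tested.

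**Figure D1:**
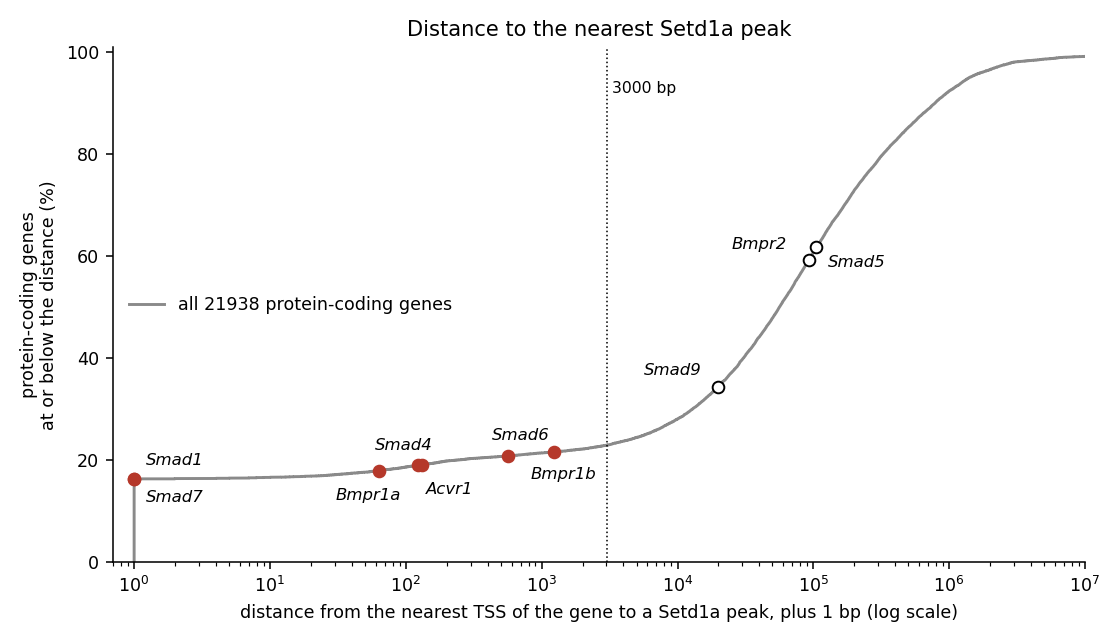
Distance from the nearest TSS of each gene to the nearest Setd1a peak, in bp plus 1 on a log axis, against the share of the 21938 protein-coding genes at or below that distance. Filled points are the 7 genes with a promoter peak, from 0 bp for Smad1 and Smad7 to 1233 bp for Bmpr1b, and open points are Smad9 at 19.8 kb, Bmpr2 at 92.6 kb and Smad5 at 105 kb, with the dotted line at 3000 bp.

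Among the receptors, Bmpr1a, a type I receptor that binds BMP2 and BMP4, carried 1 peak just ahead of its gene. Bmpr1a lies on the minus strand of chromosome 14 (GRCm38, 34410734 to 34503341, ENSMUSG00000021796.15) with 4 annotated transcripts. The peak was 350 bp wide, chr14:34503403-34503752, and ended 62 bp upstream of the TSS of the protein-coding transcript Bmpr1a-203 at 34503341. That TSS is outside the basic annotation. From the main TSS, that of Bmpr1a-201 at 34502687, the peak was 716 bp away. It lay outside the gene body. GC content was 75.8% in the 1000 bp around the main TSS but 38.9% in the peak, lower than in all but 1.78% of peaks, with 8 CpG dinucleotides in the whole peak. The ratio of observed to expected CpG, which allows for base content, was 0.619 and higher than in 45.8% of all peaks. The sequence shows where the GC-poor peak ends ahead of the TSS of Bmpr1a-203. It is the 150 bases ahead of that TSS on the minus strand, chr14:34503342-34503491, with the 89 bases that belong to the peak in capitals.
Bmpr1a-203 upstream: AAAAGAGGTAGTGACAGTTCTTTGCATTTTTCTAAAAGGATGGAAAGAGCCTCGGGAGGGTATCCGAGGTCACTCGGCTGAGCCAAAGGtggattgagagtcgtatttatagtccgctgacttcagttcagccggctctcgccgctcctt

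Acvr1, the type I receptor also called ALK2, lies on the minus strand of chromosome 2 (58388644 to 58567157, ENSMUSG00000026836.15). Its peak, chr2:58567288-58567655, was 368 bp wide and lay 131 bp upstream of the TSS of Acvr1-201 and 460 bp upstream of the main TSS, that of Acvr1-204. The same peak covered TSSs of Upp2, which encodes uridine phosphorylase 2 and is transcribed on the plus strand, away from Acvr1. The peak was therefore counted for both genes, and when each peak was given to 1 gene only, that of the nearest TSS, it went to Upp2. In contrast to the Bmpr1a peak, GC content was 79.1%, higher than in 99.4% of all peaks, with 46 CpG dinucleotides and none of it soft-masked as repeat. The 150 bases ahead of the Acvr1-201 TSS, chr2:58567158-58567307 on the minus strand, show the space between the TSS and the peak, whose nearest 20 bases are in capitals.
Acvr1-201 upstream: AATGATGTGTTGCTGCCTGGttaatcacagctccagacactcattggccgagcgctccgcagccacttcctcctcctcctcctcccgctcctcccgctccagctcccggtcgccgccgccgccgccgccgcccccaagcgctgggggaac

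Bmpr1b, a type I receptor of more restricted expression, was the gene whose peaks lay farthest from its main promoter. It spans 332290 bp on the minus strand of chromosome 3 (141837136 to 142169425, ENSMUSG00000052430.15). The promoter peak, chr3:141932756-141933472, was 717 bp wide and sat 1233 bp upstream of the TSS of an internal protein-coding transcript, Bmpr1b-204, within intron 1 of Bmpr1b-201 and intron 2 of Bmpr1b-202 and Bmpr1b-203. The main TSS, that of Bmpr1b-203, was 236 kb from it and the TSS of Bmpr1b-201 was 48.8 kb away. A second peak of 344 bp, chr3:141850098-141850441, lay 82.3 kb farther into the gene, in intron 9 of Bmpr1b-203 and 81067 bp from the nearest TSS of the gene. Both peaks were poor in CpG, with 6 each. The ratio of observed to expected CpG was 0.176 in the promoter peak and 0.364 in the other, compared with 0.833 in the 1000 bp around the main TSS. The middle 120 bases of the promoter peak, chr3:141933054-141933173 read on the minus strand, hold 2 CpG dinucleotides, in capitals. For contrast, the 82 bases of intron 1 of Smad1 within its TSS peak, chr8:79399171-79399252 on the minus strand, hold 10.
Bmpr1b promoter peak, middle: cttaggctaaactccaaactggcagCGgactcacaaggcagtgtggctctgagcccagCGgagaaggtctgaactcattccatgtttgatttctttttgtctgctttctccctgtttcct
Smad1 TSS peak, intron 1: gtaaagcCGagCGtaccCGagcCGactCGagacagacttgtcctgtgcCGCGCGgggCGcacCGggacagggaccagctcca

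Smad1, which carries the signal of the activated type I receptors, was the receptor-activated Smad with peaks. Of the other two, neither Smad5 nor Smad9 had one. Smad1 lies on the minus strand of chromosome 8 (79338395 to 79399518, ENSMUSG00000031681.16). The peak at its 5′ end, chr8:79399171-79399580, was 410 bp wide and overlapped the TSS shared by Smad1-201, Smad1-202 and Smad1-203 at 79399518, with its midpoint 143 bp inside the gene, over noncoding exon 1 and the start of intron 1. It held 62 CpG dinucleotides and its CpG ratio of 1.13 was higher than that of 99.3% of all peaks. The other peak, chr8:79350049-79350437, was 389 bp wide and lay 48.7 kb away in intron 4, where its edge met the TSS of a processed transcript, Smad1-204. It differed from the 5′ peak in composition, with a GC content of 51.9% against 74.4% and 3 CpG dinucleotides against 62. The 120 bases ahead of the main TSS, chr8:79399519-79399638 on the minus strand, show where the 5′ peak began, with its 62 bases in capitals.
Smad1-202 upstream: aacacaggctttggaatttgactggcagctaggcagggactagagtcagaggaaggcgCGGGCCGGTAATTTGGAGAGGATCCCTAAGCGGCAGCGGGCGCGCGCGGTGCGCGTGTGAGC

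Smad6, an inhibitory Smad that blocks the receptor-activated Smads, had peaks on both sides of its TSS and none over it. Smad6 lies on the minus strand of chromosome 9 (63953076 to 64022059, ENSMUSG00000036867.7). The upstream peak, chr9:64022791-64023341, was 551 bp wide and 732 bp from the main TSS. The downstream peak, chr9:64021075-64021472, was 398 bp wide, in noncoding exon 1, and 587 bp from the main TSS, or 560 bp from that of Smad6-203. The interval of 1318 bp between them held both of these TSSs. The peaks were alike in composition, with GC contents of 65.7% and 67.8%. Smad1 and Smad6 were the 2 genes of the 7 with more than 1 promoter peak, which was so for 469 protein-coding genes, or 9.31% of those with a peak. Around the TSS between the peaks of Smad6 lies 1 copy of GTCTAGAC, a palindromic sequence to which Smad3 and Smad4 are known to bind. It is in capitals in the 60 bases ahead of the TSS and the first 10 of exon 1, chr9:64022050-64022119 on the minus strand.
Smad6-201 TSS: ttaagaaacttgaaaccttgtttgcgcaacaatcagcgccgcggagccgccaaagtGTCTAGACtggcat

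The genes without a promoter peak, Bmpr2, Smad5 and Smad9, had CpG-rich promoters of the kind seen at the other 7 genes. GC content in the 1000 bp around the main TSS was 70.1% for Bmpr2, 68.1% for Smad5 and 63.7% for Smad9, all above the median of 55.3% for protein-coding genes. CpG ratios were 0.937, 0.975 and 0.677, against a median of 0.571. The 120 bases ahead of each TSS show this, with copies of the GC box GGGCGG and of GGCGCC, a GC-rich sequence to which Smad proteins are known to bind, in capitals on either strand. They are chr1:59763280-59763399, chr13:56702890-56703009 and chr3:54755462-54755581, all on the plus strand. Bmpr2 had 3 marked copies, Smad5 had 1 and Smad9 had 3.
Bmpr2-201 upstream: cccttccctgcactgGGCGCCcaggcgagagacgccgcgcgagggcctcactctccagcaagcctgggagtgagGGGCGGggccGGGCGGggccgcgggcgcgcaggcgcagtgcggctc
Smad5-201 upstream: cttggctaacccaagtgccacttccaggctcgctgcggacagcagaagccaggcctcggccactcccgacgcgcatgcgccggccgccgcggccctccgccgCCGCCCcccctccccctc
Smad9-201 upstream: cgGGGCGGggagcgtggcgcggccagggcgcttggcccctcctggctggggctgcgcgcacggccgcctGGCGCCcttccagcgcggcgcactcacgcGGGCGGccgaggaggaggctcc

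The distance to the nearest peak set these genes apart from each other. Bmpr2, the type II receptor (plus strand of chromosome 1, 59763400 to 59879014, ENSMUSG00000067336.6), was 92.6 kb from a peak of 680 bp and lay in a stretch of 427 kb without a peak, which held 4 whole protein-coding genes including itself. Smad5 (plus strand of chromosome 13, 56703010 to 56742377, ENSMUSG00000021540.16) was 105 kb from a peak of 492 bp near the TSS of 2010203P06Rik, in a stretch of 1378 kb that held 5 whole protein-coding genes. Smad9, known as Smad8 in older work (plus strand of chromosome 3, 54755582 to 54801257, ENSMUSG00000027796.2), was nearer. Its closest peak was 19.8 kb upstream and 257 bp wide, over the TSS of Alg5, an enzyme of N-glycosylation, and 114 bp from that of Exosc8, a subunit of the RNA exosome. This peak was under 300 bp, and without such peaks the nearest to Smad9 was 51956 bp away. On the other side of Smad9 a peak of 844 bp lay at Rfxap, and Smad9 was the 1 whole protein-coding gene within the 71.8 kb between these peaks. Protein-coding genes without a promoter peak had a median distance of 103 kb and an upper quartile of 344 kb. Of these genes, 52.9% were farther from a peak than Bmpr2, 49.6% farther than Smad5 and 85.2% farther than Smad9. Bmpr2 and Smad5 were thus near the middle of the genes without a promoter peak. The genes just inside and just outside the window of 3000 bp were Bmpr1b at 1233 bp and Smad9 at 19.8 kb.

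Smad4, the partner that all receptor-activated Smads share, and Smad7, an inhibitory Smad that also acts at the receptor, lie on chromosome 18. Smad4 (minus strand, 73639009 to 73703780, ENSMUSG00000024515.13) had the narrowest peak of the set, chr18:73703902-73704150, of 249 bp, wider than 4.71% of all peaks. It lay 122 bp upstream of the main TSS, that of Smad4-201, with a GC content of 67.1% and 22 CpG dinucleotides. Without the peaks under 300 bp the nearest peak to Smad4 was 69147 bp away. Smad7 (plus strand, 75367529 to 75395935, ENSMUSG00000025880.11) had a peak of 350 bp, chr18:75367351-75367700, centred 4 bp upstream of its main TSS and reaching into noncoding exon 1. The peak held 45 CpG dinucleotides, at a GC content of 74.3%. The TSS of Gm20544, a gene annotated on the minus strand, was 263 bp from this peak.

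**Figure D2:**
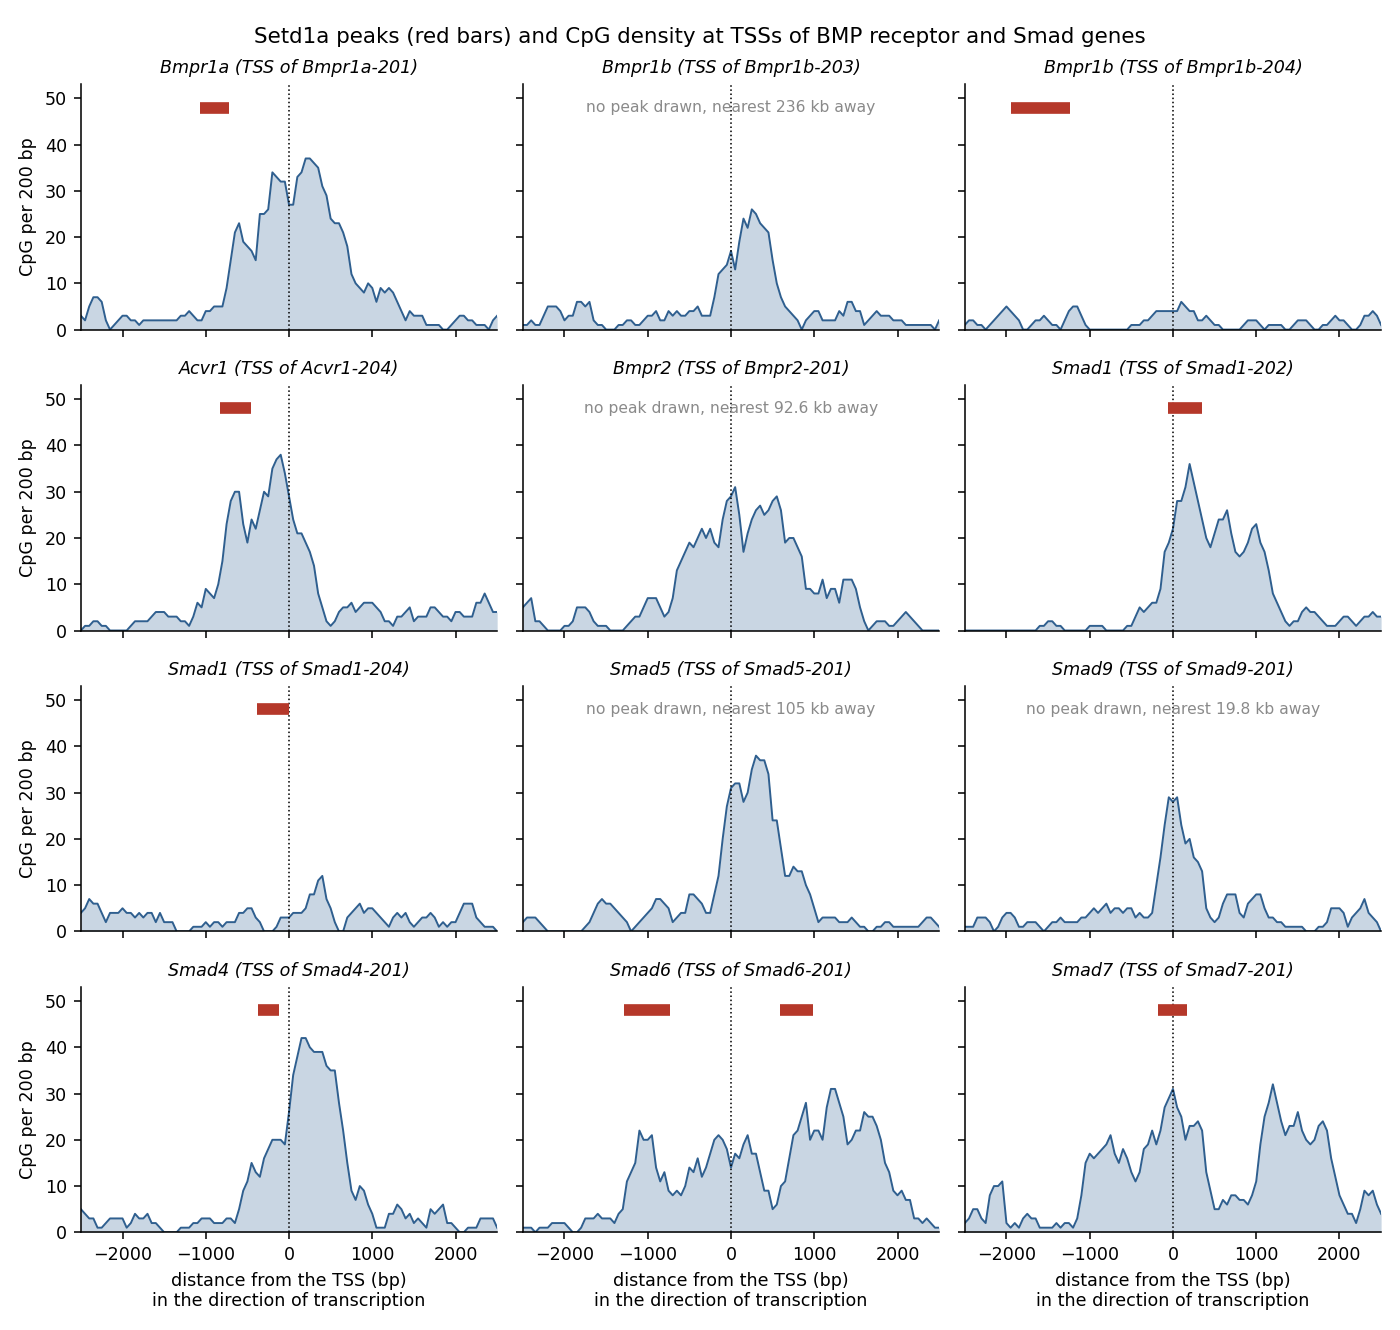
Setd1a peaks (red bars) and the number of CpG dinucleotides per 200 bp (blue) within 2500 bp of TSSs of the 10 genes, with distance in bp in the direction of transcription and 0 at the TSS named above each panel. Peaks covered the TSS of Smad1-202 and Smad7-201, flanked that of Smad6-201 on both sides, and lay upstream at Bmpr1a, Acvr1 and Smad4, while Bmpr2, Smad5, Smad9 and the main TSS of Bmpr1b had CpG-rich starts and no peak.

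In the gene bodies, peaks were present in 4 of the 10 genes, with 2 in Bmpr1b, 2 in Smad1, 1 in Smad6 and 1 in Smad7. Of all protein-coding genes 5045, or 23.0% (22.4% to 23.6%), had a peak in the gene body. The intron 9 peak of Bmpr1b was the 1 gene-body peak that lay outside the promoter window. The 10 peaks of the set thus comprised 9 promoter peaks and this one, and 8 of the 9 promoter peaks were no more than 1000 bp from a TSS.

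Peaks at the BMP receptor and Smad genes were mostly narrower than the median of all peaks, though only that of Smad4 fell below the lower quartile. The 9 promoter peaks had a median width of 389 bp and ranged from 249 bp at Smad4 to 717 bp at Bmpr1b, and 7 of the 9 were narrower than the median of all peaks, 465 bp (quartiles 329 and 688 bp). The exceptions were the promoter peak of Bmpr1b and the upstream peak of Smad6. The set of all peaks also holds peaks away from promoters. Width depends on the fragments and on how the replicates were joined, and is given here as an extent, not as a strength of binding.

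**Figure D3:**
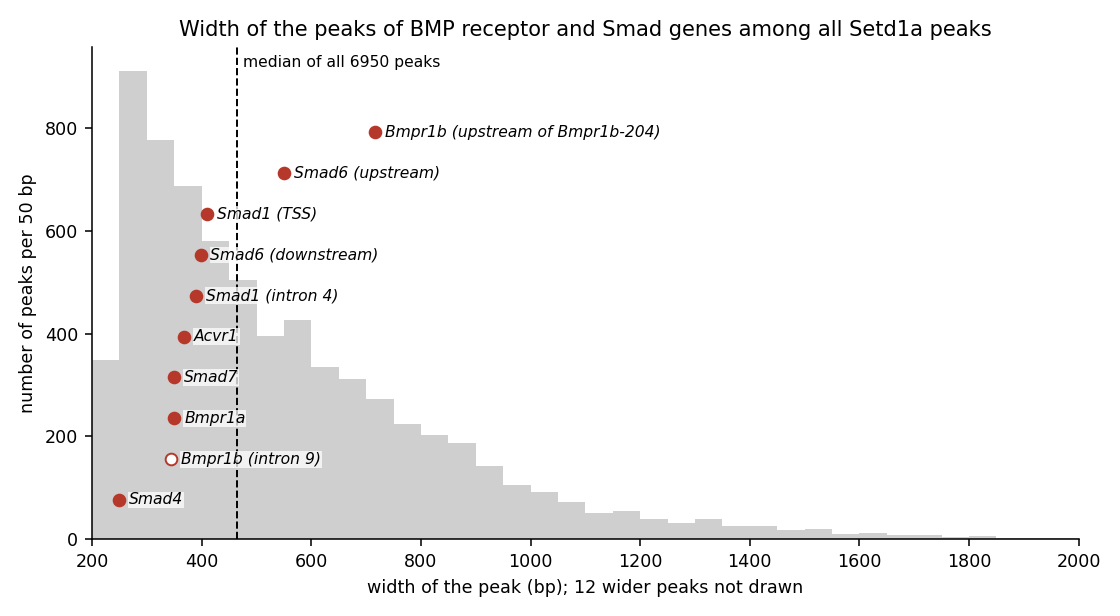
Width of each peak at the BMP receptor and Smad genes (points, in bp, placed at arbitrary heights) over the histogram of the 6950 peaks on chromosomes in bins of 50 bp, with the median as a dashed line and 12 peaks wider than 2000 bp not drawn. The open point is the intron 9 peak of Bmpr1b, outside the promoter window, and most points lie left of the median of 465 bp.

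In base composition the 9 promoter peaks were uneven. GC content had a median of 67.1% over the 9, against 58.0% over all peaks, and the CpG ratio a median of 0.803 against 0.670, with 6 of the 9 above the median of all peaks on each measure. The same 6 stood out on both, namely those of Acvr1, Smad4 and Smad7, the 5′ peak of Smad1 and both peaks of Smad6. The remaining peaks, of Bmpr1a and Bmpr1b and in intron 4 of Smad1, had GC contents of 38.9% to 51.9%. The set of all peaks also holds peaks away from promoters, so it is unlike the 9. No comparison with promoter peaks alone was made. The main promoters were more uniform. All 10 genes, with and without a peak, had a CpG-rich main TSS, meaning a GC content of at least 50% and a CpG ratio of at least 0.6 over 1000 bp, as did 46.1% of the 21853 protein-coding genes with a main TSS that could be scored. Among the 10070 protein-coding genes with a CpG-rich main TSS, 4104 had a promoter peak, or 40.8% (39.8% to 41.7%), a share closer to the 7 of 10 seen here than that of all protein-coding genes. The comparison with CpG-rich genes was chosen after the peaks had been examined.

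**Figure D4:**
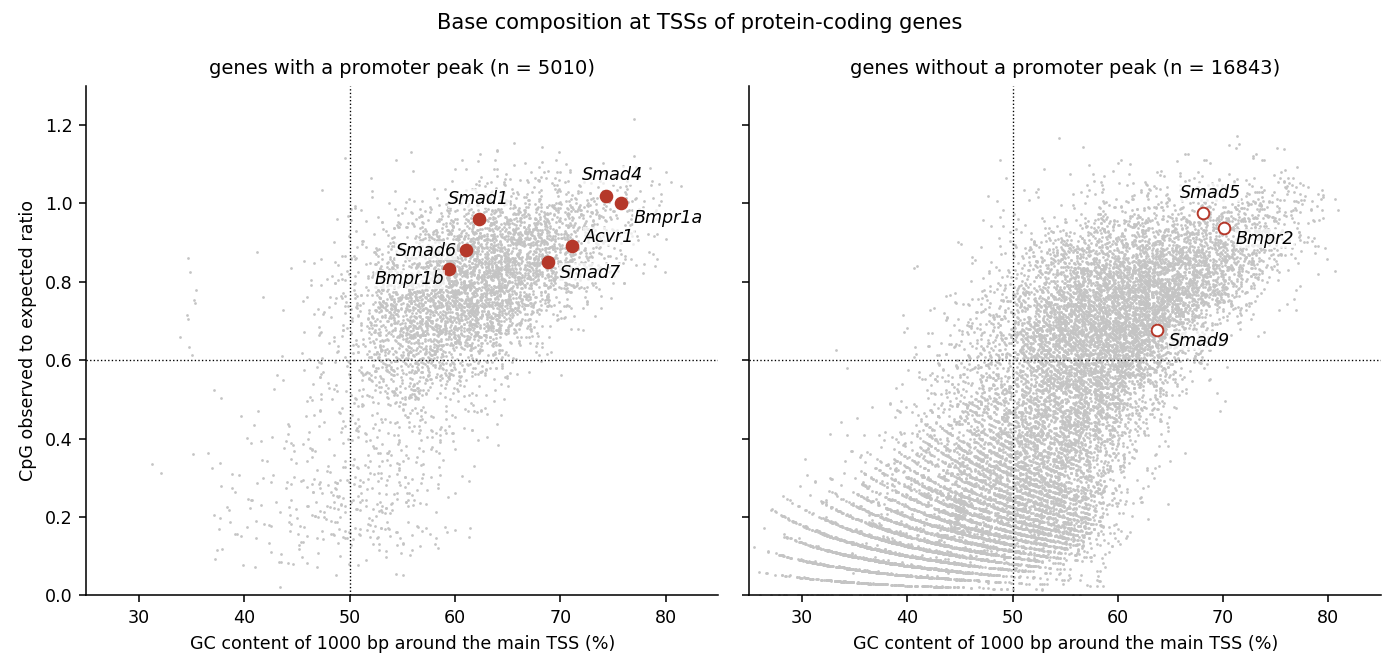
GC content (%) against the ratio of observed to expected CpG in the 1000 bp around the main TSS of protein-coding genes (grey), with a promoter peak on the left (5010 genes) and without on the right (16843 genes), and the BMP receptor and Smad genes in red. All 10 lie above and to the right of the dotted lines at 50% and 0.6, with Smad9 the lowest in CpG ratio at 0.677.

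Short sequences known to bind promoter factors and Smads were counted in the 250 bases before to 50 after each main TSS. They were also counted in the 300 bases centred on each peak, called its centre. Both strands were read and overlapping copies counted. For peaks under 300 bp, such as that of Smad4 at 249 bp, the centre reached past the edges of the peak. GGCGCC, the GC-rich Smad sequence, was present in the promoters of 6 of the 10 genes, namely Bmpr1a with 4 copies, Bmpr2, Smad4 and Smad7 with 2 each, and Smad5 and Smad9. Of all protein-coding promoters 15.1% held it. All 10 genes have a CpG-rich main TSS, and of promoters with one 27.2% held it. The central 300 bases of 6 of the 9 promoter peaks held it, the GC-rich 6 above, against 18.1% of all peaks. All peaks include those away from promoters. No share over promoter peaks alone was computed, for this or the other sequences. The GC box GGGCGG was present in 8 of the 10 promoters, compared with 45.4% of all and 73.3% of CpG-rich promoters. It was in 5 of the 9 peak centres, compared with 44.8% of the centres of all peaks. At Smad4 the copy lay outside the peak itself. The central part of the Acvr1 peak had 7 copies. CAGAC, the short Smad box, was found in 1 promoter, that of Smad4, and in 4 of the 9 peak centres, against 48.1% of all and 44.3% of CpG-rich promoters and 49.0% of peaks. GTCTAGAC was in the promoter of Smad6 alone among the 10, and in 0.197% of all and 0.228% of CpG-rich promoters. For the remaining sequences the share is that of CpG-rich promoters. CCAAT was present in 4 of the 10 promoters and 37.2% of these. CACGTG was in 1, that of Bmpr2, and in 11.1%. CCGGAA was in that of Acvr1, and in 29.4%. TGCGCA was in the promoters of Smad4 and Smad6, and in 16.1%. TGACGTCA was in none of the 10 promoters and in 3.78%. A match describes the letters and says nothing of occupancy by the factor. GGCGCC and GGGCGG are made of G and C alone, and the part of GC content in their counts was not tested.

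Along the rest of the pathway, promoter peaks were recorded for 27 of 77 other genes, or 35.1%. Such a peak was present at 23.0% of all protein-coding genes and at 40.8% of those with a CpG-rich main TSS. None of the 12 BMP ligand genes had a promoter peak, although 7 of them had a CpG-rich main TSS. Their median distance to a peak was 78.7 kb, with Bmp6 nearest at 7.41 kb, Bmp4 at 397 kb and Bmp2 at 585 kb. BMP4 was supplied in the medium, and a link between this and the ligand genes was not tested. Of the 15 extracellular antagonists and modulators, 3 had a promoter peak, each over a TSS. They were Fstl3, which binds activins, with 523 bp, Twsg1, which binds BMPs with chordin, with 567 bp, and Bmper with 914 bp. Of 14 other receptors and co-receptors of the TGF-β family, Acvr1b, Tgfbr1 and the co-receptor Rgma had peaks, also each over a TSS, of 481, 276 and 298 bp.

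Within the cell, both Smads of the activin and TGF-β branch had promoter peaks. That of Smad2 was 1403 bp wide, wider than 98.1% of all peaks, and covered its main TSS. That of Smad3 was 436 bp wide and lay 521 bp from the TSS of an internal transcript, Smad3-204, with the main TSS 90.5 kb away, a placement like that of Bmpr1b. Of 24 regulators of Smads, such as ubiquitin ligases, deubiquitinases, phosphatases and corepressors, 12 had a promoter peak. The widest were those of the corepressor Tgif1 with 779 bp, the deubiquitinase Usp9x with 716 bp and the corepressor Ski with 637 bp. Of 22 of these regulators with a CpG-rich TSS, 11 had a peak. BMP target genes had a promoter peak in 7 of 10, including Id1 to Id4, which encode inhibitors of basic helix-loop-helix factors, and Hes1, Hey1 and Atoh8. The widest were at Id1 with 1239 bp, Id2 with 920 bp and Hes1 with 565 bp, and the Id1 and Id2 peaks, which exceeded 96.5% and 89.6% of all peaks in width, were wider than every peak at the 10 receptor and Smad genes. Msx1, Msx2 and Dlx5 had none. Such widths were not shared by the list. The median width over the 7 target genes with a promoter peak was 451 bp, against 465 bp over all peaks, and the narrowest was at Id3 with 329 bp. Of the 7 target genes with a CpG-rich main TSS, 4 had a promoter peak, against 40.8% of all protein-coding genes with such a TSS. These lists, like the 10 genes, were chosen by function with earlier results known, and their counts were not tested against each other.

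**Figure D5:**
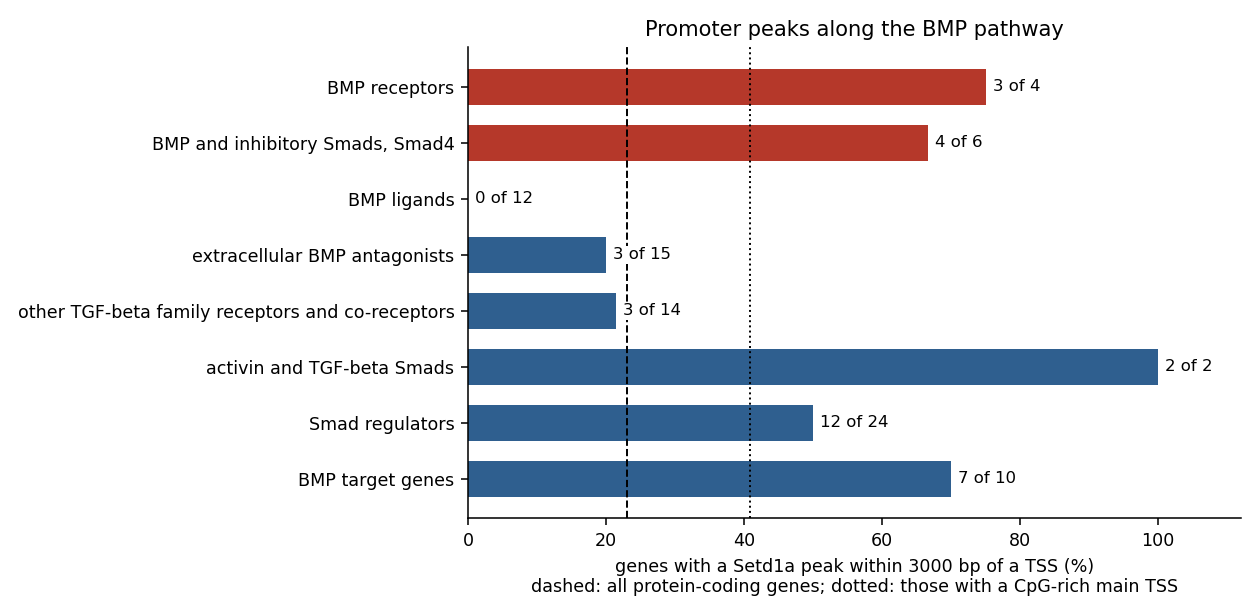
Share of genes (%) with a Setd1a peak within 3000 bp of a TSS in each list of the BMP pathway, with counts beside the bars and the 10 receptor and Smad genes in red. The dashed line is the 23.0% of all protein-coding genes and the dotted line the 40.8% of those with a CpG-rich main TSS, and the bars run from 0 of 12 ligands to 2 of 2 activin and TGF-β Smads.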

How the data were processed

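CUT & RUN of Setd1a in cultured quiescent adult NSCs comprised 2 Setd1a libraries and 1 IgG library. The authors trimmed reads, mapped them uniquely to mm10, removed those of low mapping quality, called peaks in each Setd1a replicate at default settings and kept peaks found in both. The submitters' processing notes name bcl2fastq 2.17.1.14, Trimmomatic 0.32, Bowtie2 2.1.0, SAMtools 0.1.18 and MACS2 2.2.8. The deposited columns place every peak by its chromosome and its first and last position in bp, and give no score or depth. Whether IgG served as the control, and how intervals of the replicates were joined, is not given in the sources used here. Joining rules and library depth affect which peaks are listed and how wide they are.

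Peaks were placed on GENCODE M21 transcripts and the RefSeq GRCm38.p6 sequence, in which all peaks and genes lay within the lengths of 21 of 21 chromosomes. The distance was from the nearer edge of a peak to a TSS, 0 where they overlapped, and a promoter peak lay within 3000 bp. The main TSS is that of the principal transcript, width is end minus start plus 1, and start and end were read as counted from 1. Base composition and motifs were counted in the reference. Python 3.11.15, numpy 2.4.6, pandas 2.3.3, scipy 1.17.1, pysam 0.24.0, samtools 1.23.1 and matplotlib 3.10.9 were used. Distances were tested on simulated peaks, where those of 600 of 600 protein-coding genes equalled a direct search.

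The 10 genes and the other lists were chosen with earlier results of these data known. All 10 are described. Genes of other lists are named where 5 or fewer of a list had a peak, or as the 3 widest peaks, as neighbours of a described peak, or, for ligands, BMP target genes and markers, as examples chosen after their values were seen. With 1 combined list no test between groups was possible. Alternatives covered the promoter window, the TSS set, the assignment of peaks, the minimum width of 300 bp, merging within 1000 bp and the measure of distance. Sequence on chromosome 18 and some genes of the marker and neighbour lists are not reported here.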

Additional observations from a re-analysis of the deposited data

How the results depend on the processing

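The count of BMP receptor and Smad genes with a promoter peak was 6 or 7 over 12 alternatives. It was 6 with a window of 1000 bp, and with the 5′ end of the gene or the main TSS alone, where Bmpr1b dropped out, with peaks of at least 300 bp, where Smad4 dropped out, and with each peak given to its nearest TSS, where Acvr1 dropped out. All protein-coding genes with a promoter peak numbered 3999 to 5376 and the other pathway genes 22 to 27. The 22 were counted among genes with a CpG-rich main TSS only, a smaller set. Over all 77 other pathway genes the count was 23 to 27. Genes with a peak over a TSS stayed at 2 in 4 alternatives and those with a gene-body peak at 4 in 3. The median width was 368 to 394 bp and the median GC content 65.6% to 68.8%. Restricting to CpG-rich genes or to the main TSS was chosen after seeing the data. Of 50 recomputed distances 35 were equal and 15 moved, 10 of them by measuring from the midpoint. Smad9 went from 19819 to 51956 bp without peaks under 300 bp. No paired analysis was possible because both replicates were combined into single intervals, and for the same reason no replicate could be left out. Depth is unknown, so a missing peak is a statement about the list.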
